A study of Drosophila melanogaster with 8 samples.

Results

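The JAK/STAT genes described here are the 8 core genes of the pathway in Drosophila, 8 of the 14299 genes whose reads were counted in wing discs with and without Myb. They were chosen by symbol and not by a filter on their values, though with earlier results of these data known. They are the ligand genes os (also called upd or upd1), upd2 and upd3, the receptor gene dome, the kinase gene hop, the transcription factor gene Stat92E, and the inhibitor genes Socs36E and Ptp61F. All 8 passed the filter on low counts. Polyadenylated RNA was sequenced from the wing imaginal discs, from which the adult wing and notum grow, of male larvae of the third instar. Myb mutant larvae (5 libraries) carried the X-linked allele MH107 with w1118, a null made by mobilising a P-element with Delta2-3 transposase, which also removes AlkB and is lethal at the early pupal stage. Control larvae (3 libraries) were yw67, the stock used to outcross the mutant. The mutant is thus 1 allele in 1 outcrossed line, and all cells of its discs carry it.

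How far the libraries are independent is unclear. The protocol text counts 3 and 5 biological replicates, whereas the sample descriptions place all control libraries in 1 biological replicate, Myb mutant library 1 in another and Myb mutant libraries 2 to 5 in another again. The p-values below therefore measure the spread between libraries, which may be technical. As a harsher alternative, the libraries were also summed by the described replicates, giving 1 control against 2 mutant samples, with the lone control sample assumed to vary like the mutant ones.

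Unpaired ligands bind the dimeric receptor Domeless, whose associated kinase Hopscotch phosphorylates the receptor and then Stat92E, which moves to the nucleus and activates its targets. Socs36E is itself switched on by the pathway and damps it. In wing discs the pathway patterns the hinge, restrains proliferation or promotes it depending on stage, and is switched on around wounds. The ligand genes lie side by side on the X chromosome and are known to respond to JNK signalling and to Yorkie, and to be held down by Polycomb group proteins. JAK/STAT signalling in other fly tissues is known for stress and immune peptides in the fat body, for stem cell upkeep in the testis and for border cell migration in the ovary.

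Levels are given as CPM, read counts scaled to library size with TMM factors, which compare libraries but not genes of different length. Differences are log2 changes of Myb mutant against control from edgeR, with standard errors. Adjusted p-values (Benjamini-Hochberg) cover all 9076 genes tested, and a gene was called at an adjusted p under 0.05. Library totals ran from 50562199 to 65322440 counts. Myb itself fell from 301 ± 4.94 CPM (SD, n = 3) to 5.79 ± 1.13 CPM (SD, n = 5), and AlkB from 7.66 CPM to 0 counts in all 5 mutant libraries, as the labels require. The wing disc markers summed to 2325 to 2866 CPM in the control and to 2742 to 2864 CPM in the mutant libraries, with all 13 tested. Control library 2 stood apart by transcript length. Its median log2 level against the other controls ran from 0.15 in the shortest of 5 equal bins of genes to -0.27 in the longest.

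Of the 8 genes, upd2 and upd3 were higher in Myb mutant discs, none was lower and 6 were not called. Of all genes tested 34.4% were called, 16.9% higher and 17.5% lower, so a count of 2 of 8 is near that background. At an unadjusted p under 0.05 the same test put 5 members higher and 0 lower. Of all 9076 genes it put 2025 higher and 2057 lower. DESeq2 called 3 members higher and 0 lower, beside 1773 higher and 1720 lower of 10233 genes. The called upd2 and upd3 are 2 of the 3 ligand genes. Their changes of 1.37 ± 0.33 and 1.15 ± 0.16 on the log2 scale were the only ones among the members at or above a doubling. The other estimates ran from 0.01 to 0.25. All 8 estimates were positive, beside 4715 of the 9076 genes tested. Without control library 2 those of Stat92E and Ptp61F were negative (-0.09 and -0.02) and that of hop was 0.03. The median of the 8 was 0.18 and that of all genes 0.01. In upd2, upd3 and dome all mutant libraries lay above all control libraries, beside 19.6% of all genes tested. In the other 5 members the genotypes overlapped. Groups without overlap in either direction occurred in 38.9% of genes.

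**Figure D1:**
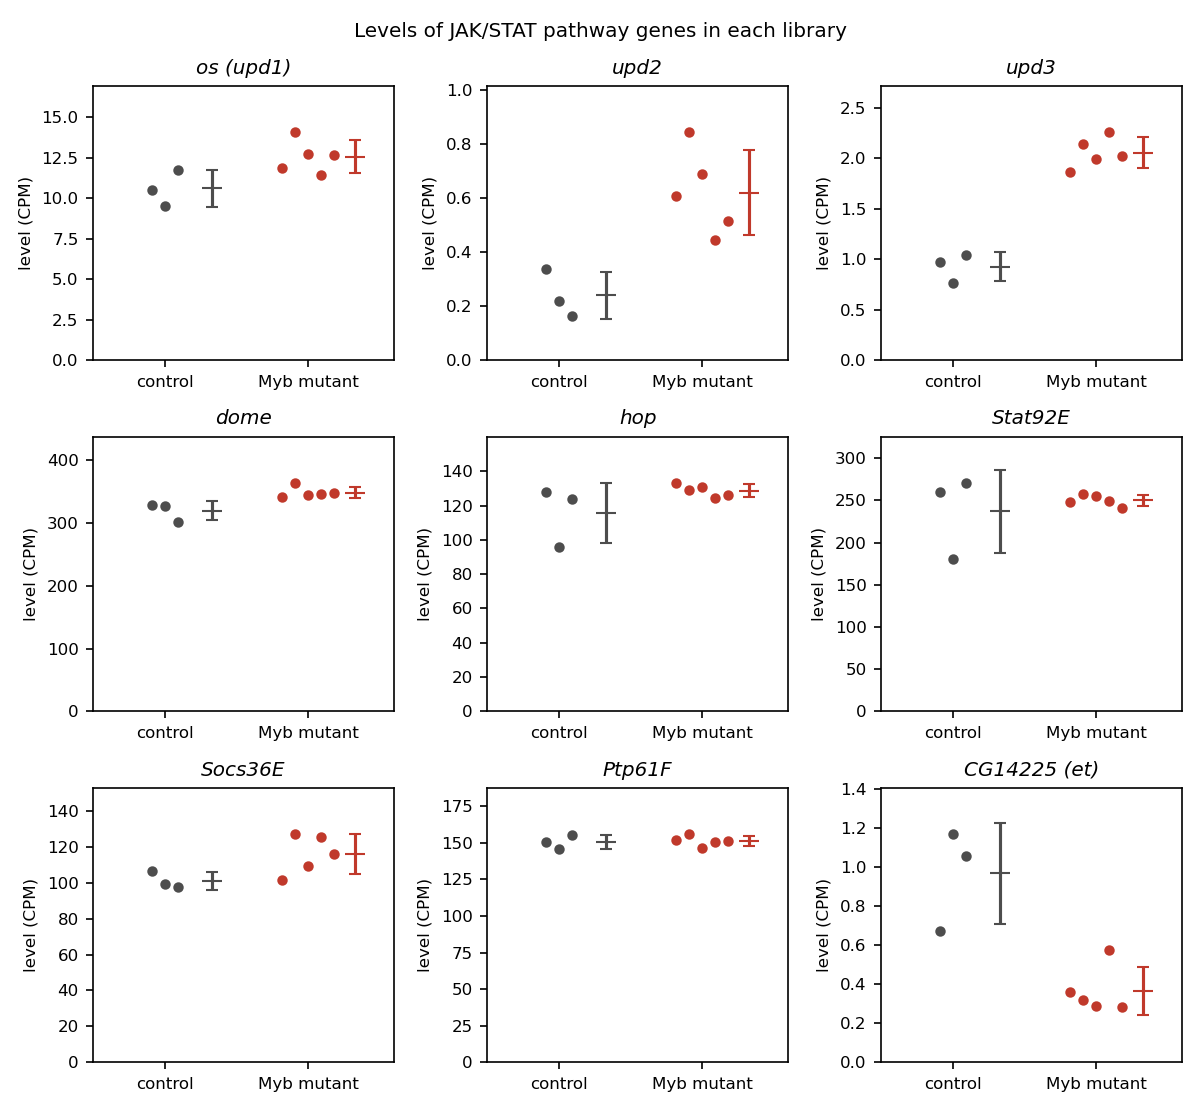
Level in CPM (linear axis from 0) of each JAK/STAT member and of the antagonist receptor gene CG14225 (et) in every library, with the control libraries in grey and the Myb mutant libraries in red. Bars give the mean ± SD of 3 control and 5 mutant libraries. Only upd2, upd3 and dome have all mutant points above all control points, and only CG14225 has them all below.

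Among the ligands, upd3 gave the firmest difference. It encodes a cytokine secreted by stressed and wounded tissue and by blood cells, and lies on the X chromosome from 18277233 to 18284596 (BDGP6, plus strand). The control libraries 1 to 3 held 0.973, 0.768 and 1.04 CPM, from 49, 42 and 63 reads. Myb mutant libraries 1 to 5 held 1.86, 2.14, 1.99, 2.26 and 2.02 CPM, from 104, 114, 130, 122 and 129 reads. Every mutant library thus carried more than 1.5 times the level of the highest control. The means were 0.927 ± 0.142 and 2.06 ± 0.152 CPM (SD, n = 3 and 5), a fold of 2.21, with an adjusted p of 0.00081. Counting error alone, over 154 and 599 reads, gave an exact 95% interval of 1.84 to 2.65 around a ratio of 2.20. The call was kept without each library in turn, with log2 changes of 1.02 to 1.24, and it was lost when libraries were summed by described replicate, at 1.07 ± 0.26 (adjusted p = 0.0806).

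The gene upd2 encodes a ligand of the same family that signals over longer distances, and lies from 18240654 to 18243284 on the minus strand. It was the scarcest member. Its levels were 0.338, 0.219 and 0.165 CPM in control libraries 1 to 3, from 17, 12 and 10 reads. They were 0.609, 0.846, 0.689, 0.445 and 0.516 CPM in mutant libraries 1 to 5, from 34, 45, 45, 24 and 33 reads. The lowest mutant library exceeded the highest control by less than the controls differed among themselves, so the separation was narrower than for upd3. Means of 0.241 ± 0.0881 and 0.621 ± 0.156 CPM gave a fold of 2.58 (adjusted p = 0.0127). The counting interval around the ratio of 2.63 was 1.85 to 3.82. The call was kept without each library in turn (log2 changes of 1.15 to 1.68, adjusted p of 0.0125 to 0.0426). With the libraries summed the estimate was 1.37 ± 0.42 and was not called (adjusted p = 0.117).

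The third ligand gene, os, encodes Unpaired, the founding member of the family and the main ligand in embryonic segmentation and eye growth. It lies from 18305354 to 18309291 on the minus strand. In the control libraries it held 10.5, 9.55 and 11.8 CPM, and in the mutant libraries 11.9, 14.1, 12.8, 11.5 and 12.7 CPM. Control library 3 lay above mutant library 4, so the genotypes overlapped. The log2 change was 0.25 ± 0.09 and was not called (adjusted p = 0.0638), with a range of 0.17 to 0.33 as each library was left out. Without control library 3 it was called (adjusted p = 0.0336).

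Per kilobase of exon, os gave most of the ligand RNA in both genotypes. The summed level of the 3 ligand genes was 3.94 ± 0.405 RPKM (reads scaled by exon length and depth, SD, n = 3) in control and 5.27 ± 0.402 RPKM (SD, n = 5) in mutant libraries. The part of this sum that came from upd2 and upd3 was 15.3%, 13.0% and 12.8% in the control libraries and 23.2%, 23.6%, 23.3%, 25.3% and 22.3% in the mutant libraries. The scarce ligand genes thus gave a larger part of the ligand RNA in mutant libraries, with a gap between the genotypes wider than the spread within either. This part restates the values of the 3 genes above and was not tested, and ligand protein was not measured. Between themselves, upd3 was 2.57 to 5.62 times upd2 in control and 2.26 to 4.53 times in mutant libraries, ranges that overlap. With 10 to 45 reads of upd2 per library, counting error adds to this spread. Whether the 2 genes keep a fixed ratio was not tested.

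The receptor gene dome (X, 19676061 to 19683518) is the only signalling receptor of the pathway and was the most abundant member per length. Its levels were 330, 328 and 302 CPM in control and 341, 364, 345, 346 and 347 CPM in mutant libraries. All mutant libraries lay above all controls, but by little: the log2 change was 0.13 ± 0.05 and missed the threshold in edgeR (adjusted p = 0.0805). DESeq2 called it at 0.13 ± 0.05 (adjusted p = 0.0207), and edgeR called it without control library 2 (adjusted p = 0.0464).

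The antagonist of this receptor was lower in the mutant. The gene et, listed in the table as CG14225, encodes a receptor-like protein that dampens signalling by Domeless, and was taken from the list of further pathway genes. It held 0.675, 1.17 and 1.06 CPM in control libraries 1 to 3, from 34, 64 and 64 reads. In mutant libraries 1 to 5 it held 0.358, 0.320, 0.291, 0.575 and 0.282 CPM, from 20, 17, 19, 31 and 18 reads. All mutant libraries lay below all controls, with mutant library 4 and control library 1 the nearest. The log2 change was -1.41 ± 0.30 (adjusted p = 0.00733), from 0.968 ± 0.260 to 0.365 ± 0.121 CPM. The ratio of reads was 0.367 with a counting interval of 0.285 to 0.472. The call was kept without each library in turn (log2 changes of -1.64 to -1.25) and lost with the libraries summed, at -1.46 ± 0.35 (adjusted p = 0.0796). In the BDGP6 annotation 42 bases of its exons overlap exons of Zw on the opposite strand, and whether counting used strand is not given in the sources used here. Zw held 42.8 ± 5.75 CPM in control and 42.9 ± 2.13 CPM in mutant libraries (adjusted p = 0.98), and the part of the overlap in the values of et was not tested. No member overlaps exons of another gene. The level of dome per length was 241, 138 and 141 times that of et in control libraries and 298 to 610 times in mutant libraries.

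Neither the kinase gene nor the STAT gene was called. For hop, the only Janus kinase of the fly (X, 11360930 to 11368098), the levels were 128, 95.6 and 124 CPM in control and 133, 129, 131, 124 and 126 CPM in mutant libraries. Control library 2 was low and the rest overlapped closely, with a log2 change of 0.15 ± 0.09 (adjusted p = 0.204) that shrank to 0.03 without it. For Stat92E, the only STAT of the fly (3R, 20535323 to 20552311), the levels were 260, 181 and 271 CPM in control and 249, 258, 255, 250 and 241 CPM in mutant libraries. Here too control library 2 alone was low. The log2 change was 0.08 ± 0.12 (adjusted p = 0.637), and without that library it turned to -0.09 ± 0.04 (adjusted p = 0.0947). No direction can thus be given for Stat92E RNA.

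Of the inhibitors, Socs36E encodes the feedback suppressor that binds the receptor complex and is often read as a reporter of pathway activity (2L, 18138675 to 18152417). Its levels were 106, 99.1 and 97.3 CPM in control and 101, 127, 109, 126 and 116 CPM in mutant libraries. Mutant library 1 fell within the control range and the other mutant libraries lay above it. The log2 change was 0.20 ± 0.08 and was not called (adjusted p = 0.0761). Without mutant library 1 it was 0.25 and called (adjusted p = 0.0247). The phosphatase gene Ptp61F, whose product removes phosphate from Hopscotch and Stat92E (3L, 1342493 to 1475257), was at 151, 146 and 156 CPM in control and 152, 156, 146, 150 and 151 CPM in mutant libraries. The genotypes overlapped fully, the log2 change was 0.01 ± 0.04 (adjusted p = 0.927), and its sign turned with several settings.

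Ordered by level per length, the control libraries gave dome (65.6 RPKM), Stat92E (45.5), Socs36E (28.8), Ptp61F (24.8), hop (22.9), os (3.40), upd3 (0.417), et (0.401) and upd2 (0.122). The lengths are those of all annotated exons in BDGP6. Neighbours in this order whose libraries overlapped were Ptp61F with hop, and upd3 with et. In the mutant libraries the means were 71.6, 48.1, 33.1, 24.9, 25.5, 4.03, 0.925, 0.151 and 0.314 RPKM in the same order of genes. There upd3 no longer overlapped et, whose mean was below that of upd2, with an overlap of their ranges through mutant library 4 alone. Receptor, kinase and STAT thus stood well above the ligands in both genotypes. These are bulk discs, in which fewer cells making a transcript and less transcript per cell cannot be told apart.

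Further regulators of the pathway moved by small amounts in both directions. Of 19 listed genes, 5 were higher, 4 were lower and 10 were not called, beside 16.9% higher and 17.5% lower of all genes tested. The median log2 change of the 19 was 0.06, beside 0.01 for all genes. Beside et, the largest change was in asrij, which encodes an endosomal protein of blood cells that promotes Stat92E activation. It rose from 35.6 ± 6.92 to 51.7 ± 2.71 CPM (log2 change 0.54 ± 0.11, adjusted p = 0.00613). With the libraries summed it was 0.48 ± 0.09 and not called (adjusted p = 0.0528). The gene ken, whose product represses a subset of Stat92E targets, rose from 72.0 ± 6.03 to 92.2 ± 7.30 CPM (0.36 ± 0.08, adjusted p = 0.00741), a call also lost in the sums (adjusted p = 0.0855). Among the glypicans that bind Unpaired ligands outside the cell, dlp rose by 0.27 ± 0.06 (adjusted p = 0.00897). Its relative dally, named after its values were seen, had all mutant libraries above all controls but was not called at 0.33 ± 0.13 (adjusted p = 0.0795). In the sums both were called (adjusted p = 0.0388 for dlp and 0.0354 for dally).

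Cdk4 and CycD, a kinase and its cyclin reported to cooperate with Stat92E in growth, moved apart. Cdk4 fell from 71.0 ± 1.95 to 54.9 ± 3.10 CPM (-0.37 ± 0.05, adjusted p = 0.00066), whereas CycD was higher by 0.11 ± 0.03 (adjusted p = 0.0234). Socs44A, a second SOCS gene, was higher by 0.17 ± 0.05 (adjusted p = 0.0195). The SUMO gene smt3, whose product is attached to Stat92E, fell by 0.20 (adjusted p = 0.0165), and the gene of the heterochromatin protein HP1a fell by 0.19 (adjusted p = 0.0438). The calls of CycD, Socs44A, smt3 and HP1a were each lost in 2 or more of the 8 fits that left out a library, and those of CycD, Socs44A and smt3 also with the libraries summed (adjusted p of 0.194, 0.173 and 0.0515). Of the uncalled genes with the highest levels, mask was at 0.06 and E(bx) at 0.15, and both turned negative without control library 2 (-0.19 and -0.09). The SUMO conjugase gene lwr was at -0.15.

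**Figure D2:**
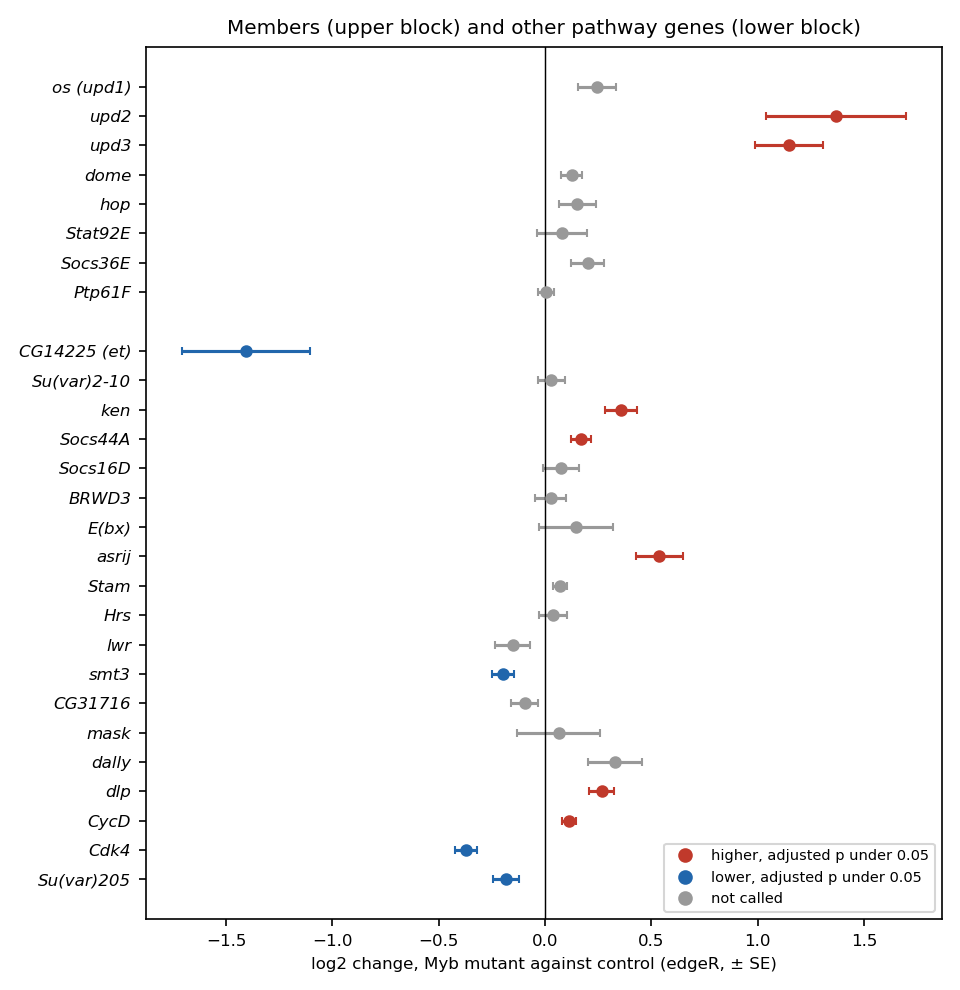
Log2 change of Myb mutant against control ± SE (edgeR, 8 libraries) for the 8 members and for 19 further pathway genes, coloured by call. The ligands upd2 (1.37) and upd3 (1.15) lie far to the right and CG14225 (et, -1.41) far to the left, while the other genes lie between -0.37 and 0.54.

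Genes known as Stat92E targets in other fly tissues were read next. Among the members Socs36E is often read as a reporter of pathway activity, and it was not called (0.20 ± 0.08, adjusted p = 0.0761). The RNA of the other pathway genes does not report on the activity of the pathway. Of 18 listed target genes 13 were tested, with 7 higher, 2 lower and 4 not called, and a median log2 change of 0.44. Of these, slbo and TotC, with 11 and 1 control reads, passed the filter on low counts only through the mutant libraries. Both could hardly have been called lower, and the 7 higher and the median include them. Of all genes tested 16.9% were higher and 17.5% lower, with a median of 0.01. The groups were free of overlap in 9 of the 13, beside 38.9% of all genes tested. These were the 9 called genes, and calls and overlap come from the same libraries. The list mixes targets found in different tissues, and its members did not move as 1 group.

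The best separated target was slbo, the C/EBP gene that drives border cell migration in the ovary. It was nearly silent in the control, at 0.0397, 0.0915 and 0.0661 CPM, and held 0.484, 0.902, 0.658, 0.649 and 0.767 CPM in the mutant libraries. This was a log2 change of 3.34 ± 0.36 (adjusted p = 0.00018), from 11 control reads in all. With the libraries summed it was 3.18 ± 0.60 and not called (adjusted p = 0.0547). The gene chinmo, which encodes a zinc finger protein of stem cells and growing discs, held 13.1, 2.91 and 13.3 CPM in control and 24.4, 42.6, 29.8, 30.0 and 27.6 CPM in mutant libraries. Control library 2 was low, and the log2 change of 1.66 ± 0.44 (adjusted p = 0.0192) became 1.22 without it (adjusted p = 0.00322). The engulfment receptor gene drpr was higher by 0.23 ± 0.06 (adjusted p = 0.0131, and 0.0533 with the libraries summed).

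Among targets known from immunity, vir-1, a gene induced by virus infection, rose from 30.2 ± 4.16 to 43.2 ± 3.96 CPM (0.52 ± 0.10, adjusted p = 0.00522). The thioester protein genes, which encode complement-like proteins, split. TepII (Tep2) rose from 80.3 ± 3.77 to 109 ± 17.9 CPM and TepIV (Tep4) from 388 ± 24.4 to 480 ± 18.3 CPM. TepI (Tep1) fell from 1.91 ± 0.401 to 0.261 ± 0.104 CPM (log2 change -2.87 ± 0.32, adjusted p = 0.00022). The TepII change of 0.44 ± 0.12 (adjusted p = 0.0195) was not called without control library 3 (adjusted p = 0.0608) or with the libraries summed (adjusted p = 0.178), and that of TepIV was 0.31 ± 0.06 (adjusted p = 0.00411). ImpL2, which encodes a secreted insulin-binding protein, was the other gene that fell, by 0.32 on the log2 scale (adjusted p = 0.00702). The uncalled apt and zfh1 were at -0.14 and 0.23.

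The Turandot genes encode small secreted stress peptides made mainly by the fat body. For TotA the control libraries gave 7.01, 1.65 and 0.429 CPM, and the mutant libraries 22.4, 2.27, 13.4, 19.9 and 7.65 CPM. The genotypes overlapped and the log2 change of 2.13 ± 0.94 was not called (adjusted p = 0.113). It was called without control library 1, at 3.67 (adjusted p = 0.0338). TotC had 1 read in all control libraries and 99 in the mutant ones, a ratio of 56.1 with a counting interval of 9.84 to 2238 (adjusted p = 0.00423, and 0.0508 with the libraries summed). TotB and TotZ had 0 control reads against 23 and 14 summed over the mutant libraries. Against a floor of 3 reads over the control group these sums were 4.34-fold and 2.64-fold higher. Both genes failed the filter and were not tested, and the genotypes overlapped. TotB had 0 reads in mutant library 2, and TotZ had 0 in mutant libraries 2 and 3. TotF, TotM and TotX had 0 reads in every library.

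Fat body markers varied between libraries and moved with TotA. The 5 markers, all larval serum protein genes or their kin, summed to 4505, 1828 and 71.4 CPM over the control libraries in order, and to 5131, 462, 1786, 3391 and 746 CPM over the mutant ones. The control libraries fell in the same order by TotA as by this sum, and so did the mutant libraries. None of the 5 markers was called between the genotypes by edgeR, or passed an unadjusted p of 0.05 (0 of 5), and none was at 0. The part of fat body RNA in the Turandot values was not tested.

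**Figure D3:**
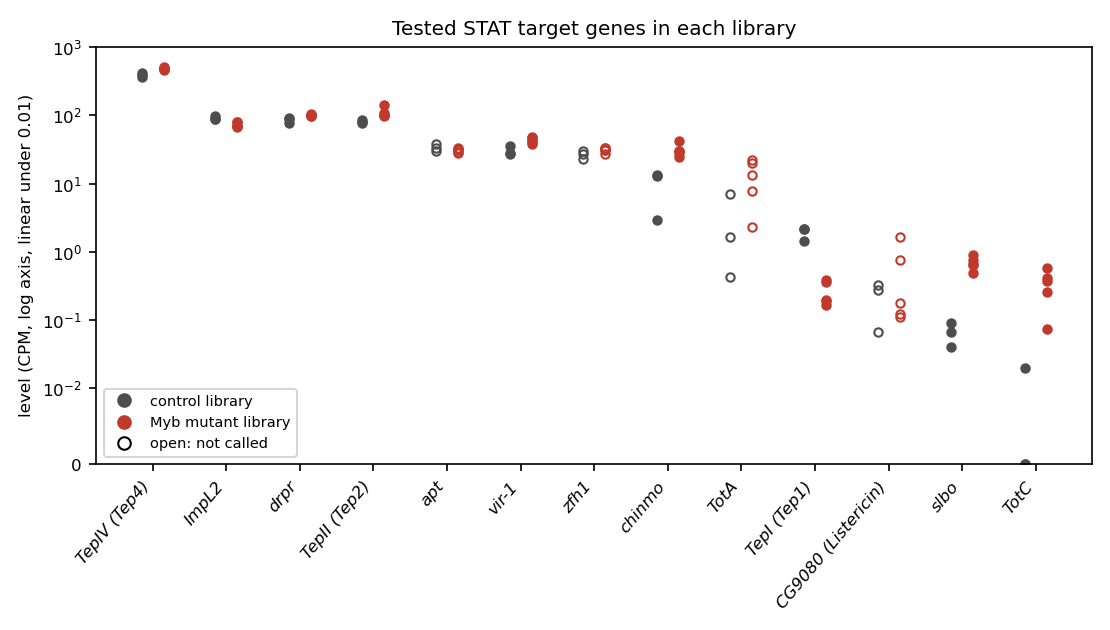
Level in CPM (log axis, linear under 0.01) of the 13 tested Stat92E target genes in each control (grey) and Myb mutant (red) library, ordered by control level. Filled points mark the 9 called genes. The mutant libraries of slbo, TotC, chinmo and vir-1 lie above the control libraries and those of TepI and ImpL2 below, while TotA spans 2.27 to 22.4 CPM within the mutant alone.

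Blood cell markers moved opposite to upd3 and asrij, genes that circulating blood cells also express. Of 7 hemocyte markers 6 were lower and none higher (0 also at an unadjusted p under 0.05 in edgeR), with a lowest log2 change of -5.34. Of all genes tested 17.5% were lower. The sum of the 7 markers fell from 217 to 295 CPM in control libraries to 43.9 to 61.3 CPM in mutant libraries, with none at 0. Of the mutant sums 38.1 to 42.4 CPM came from crq, the marker not called (log2 change -0.14). The sum thus understates the fall of the other 6. Within each genotype the order of libraries by this sum was not that of upd3: mutant library 4 was highest in both, but mutant library 2, second by upd3, had the lowest sum. The part of hemocyte RNA in the pathway values, those of TepI and et included, was not tested. Myoblast markers (0 of 4 called by edgeR, 0 at an unadjusted p under 0.05) were as high in both genotypes, at 188 to 208 and 196 to 213 CPM. Of 5 tracheal markers 1 was higher and 2 were lower.

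Groups of genes known to act on the ligands in discs were listed for comparison. Of 11 JNK and disc damage genes 5 were higher, 1 lower and 5 not called, with a median log2 change of 0.18. Of all genes tested 16.9% were higher and 17.5% lower, with a median of 0.01. The metalloprotease gene Mmp1, induced at wounds, rose from 28.9 ± 1.80 to 56.6 ± 0.563 CPM (0.97 ± 0.05, adjusted p = 1.2e-06). The transcription factor gene Ets21C rose from 1.81 ± 0.682 to 4.03 ± 0.660 CPM (1.15 ± 0.25, adjusted p = 0.00728), a call lost with the libraries summed, at 1.04 ± 0.24 (adjusted p = 0.0747). The gene of the tumor necrosis factor Eiger, egr, rose from 8.98 ± 1.15 to 13.1 ± 0.529 CPM (0.55 ± 0.09, adjusted p = 0.00153). The Fos gene kay was higher by 0.32 and the JNK kinase gene hep by 0.14, whereas the JNK gene bsk itself fell by 0.17. The calls of hep and bsk did not hold in 6 and 2 of the 8 fits without a library, nor in the sums (adjusted p of 0.184 and 0.0962). Among the uncalled, msn was at 0.14 (-0.02 without control library 2), CG10176 (grnd), which encodes an Eiger receptor, at 0.18, and Jra at -0.13. The other uncalled genes, named after their values were seen, were puc (0.10 ± 0.07, adjusted p = 0.283) and CG14059 (Ilp8, 1.22 ± 0.72, adjusted p = 0.219). The genotypes overlapped in both. For Ilp8 mutant library 4 held 8.79 CPM and the other mutant libraries 1.13 to 2.27 CPM.

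Of all genes tested 16.9% were higher and 17.5% lower, with a median log2 change of 0.01. Of 7 Hippo pathway genes 3 were higher and none lower (0 also at an unadjusted p under 0.05), with a median of 0.20. These were the upstream regulators and Yorkie targets ex (0.38 ± 0.11, adjusted p = 0.0240) and CG33967 (kibra, 0.40 ± 0.12, adjusted p = 0.0304), and the Yorkie target fj (0.31 ± 0.05, adjusted p = 0.0021). The call of ex was lost without mutant library 2 and that of kibra in 5 of 8 such fits. By DESeq2 the count of lower genes was also 0, and without control library 2 it was 1, hpo, which stood at -0.10 with all libraries. The uncalled sd and wts were at 0.12 and 0.20, and sd turned to -0.04 without control library 2. Of 11 Polycomb group genes, none was higher in edgeR and 1 was lower, esc at -0.17 ± 0.05 (adjusted p = 0.0212), a call lost in 3 of 8 fits and in the sums (adjusted p = 0.103). At an unadjusted p under 0.05 these were 3 and 2. DESeq2 put 1 higher, ph-p, which edgeR left at 0.18 (adjusted p = 0.056). Neither ph-d (0.17) nor Sfmbt (0.11) was called.

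The position of the ligand genes was then examined, since upd2 and upd3 rose and os, in the same cluster, was not called. Measured from the start of upd3, the start of upd2 lies at -33.9 kb and that of os at 32.1 kb. The only other gene listed inside the cluster, CG15059, had 2 reads in all. On the left, Him, which encodes an inhibitor of muscle differentiation, starts at -67.8 kb and was not called, at 0.23 ± 0.16 (adjusted p = 0.285). Without control library 2 it was called at 0.46 (adjusted p = 0.0107). On the right, CG6023 starts at 44.0 kb and was lower, from 6.93 ± 0.483 to 5.21 ± 0.426 CPM (-0.41 ± 0.09, adjusted p = 0.0104, and 0.105 with the libraries summed). Her (Hesr), CG33639, CG6123 (kairos) and CG6106 had 2 to 34 reads in a group where they had any and were not tested. No tested neighbour on either side was thus called higher with all 8 libraries.

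**Figure D4:**
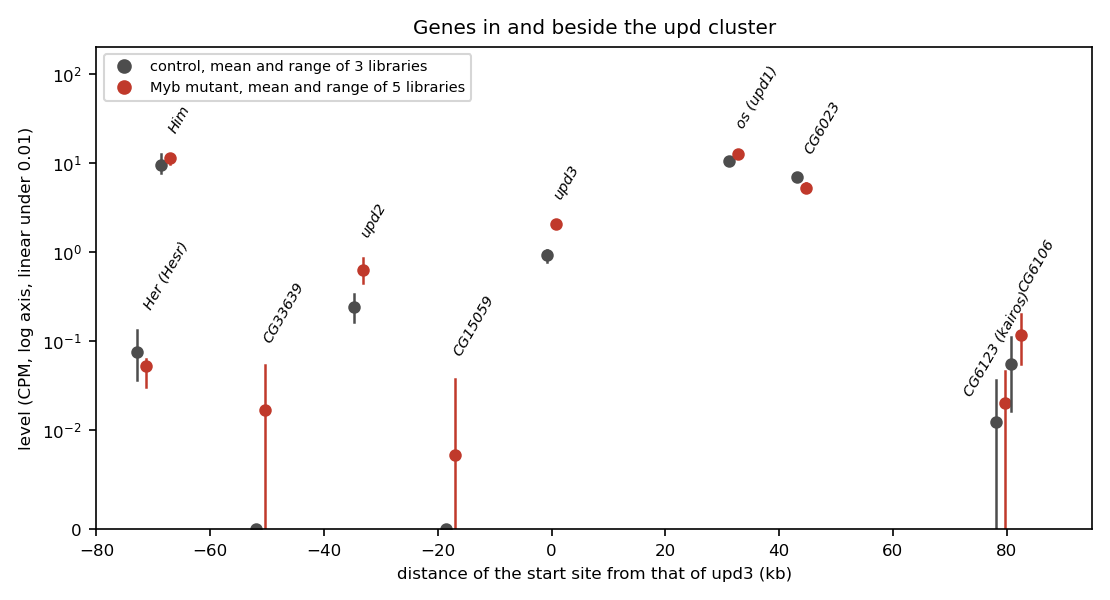
Mean level in CPM (log axis, linear under 0.01) of the genes in and beside the upd cluster, placed by the distance of their start site from that of upd3 in kb. Vertical lines span the 3 control (grey) and 5 Myb mutant (red) libraries. The genotypes separate at upd2 and upd3, where the mutant is higher, and at CG6023, where it is lower.

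The Myb deletion is on the X chromosome, as are os, upd2, upd3, dome and hop. Of 1400 X-linked genes tested 461 were called (32.9%), and of 6784 genes of the major autosome arms 2378 were called (35.1%). The called members are thus both X-linked, on a chromosome with a share of calls near that of the autosomes.

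The genes whose levels followed the called members most closely over the 8 libraries were sought by Pearson's r of log2 CPM among 7920 genes. The points share the genotype difference that called the members, so r is a description. For upd3 these were Rep2 (Drep2, r = 0.996), CG3004 (r = 0.995) and GstE6 (r = 0.995). Rep2 rose from 4.90 to 17.6 CPM and GstE6 from 9.34 to 40.3 CPM, whereas CG3004 moved by 0.22 on the log2 scale. For upd2 they were CG6638 (r = 0.994), CG11122 (r = 0.972) and CG8611 (r = 0.969), with log2 changes of 0.14, 0.24 and 0.25. The size of the change in the genes most like upd2 was thus far below that of upd2 itself.

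**Figure D5:**
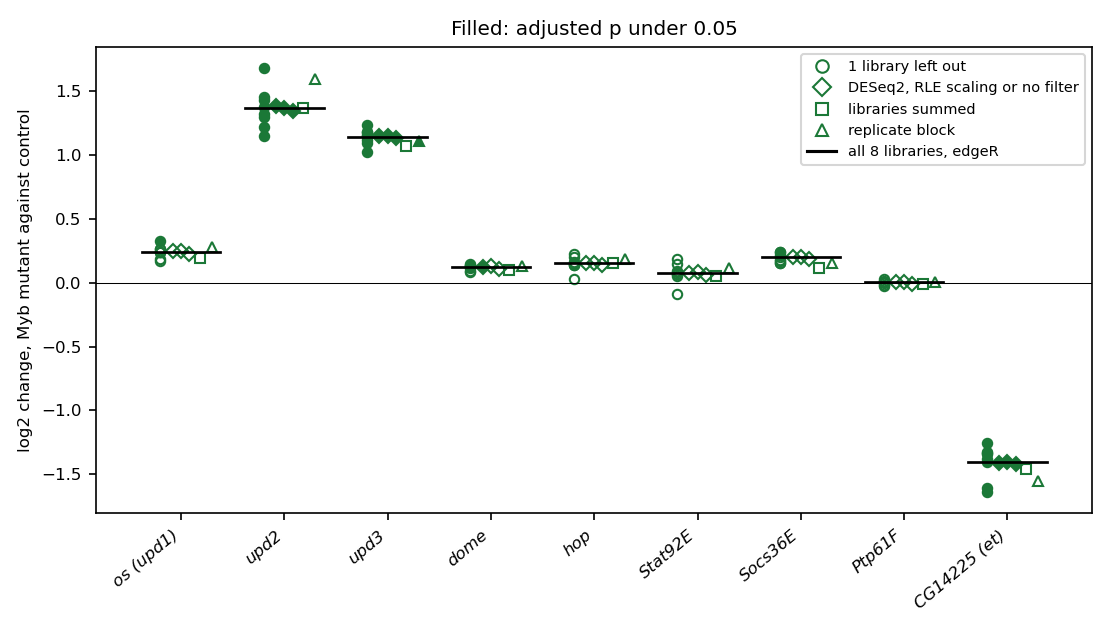
Log2 change of each member and of CG14225 (et) under each alternative, with black lines for the estimate from all 8 libraries and filled symbols for an adjusted p under 0.05. The estimates of upd2 (1.15 to 1.68 without 1 library), upd3 (1.02 to 1.24) and CG14225 (-1.64 to -1.25) stay far from 0, those of Stat92E and Ptp61F cross it, and no gene is called with the libraries summed.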

How the data were processed

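Polyadenylated RNA of 3 control and 5 Myb mutant wing disc libraries was sequenced. The deposited counts are raw reads per gene. Per the study's methods and the labels, the authors trimmed reads with Trimmomatic (0.22 per the labels), aligned them to exons of FlyBase release 5 with Bowtie2 2.1.0 and summed unique reads per gene with eXpress output. The deposited table also holds the authors' DESeq2 log2 fold changes and p-values, which were not used.

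A row pooling mitochondrial reads (0.574% to 1.34% of counts) was left out before scaling, and 14299 genes remained. Of the table's identifiers 12120 were found in BDGP6 (Ensembl release 115), and 508 more were matched by symbol. Positions and exon lengths come from that annotation, not from the build used for alignment.

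Counts were filtered (filterByExpr), scaled by TMM and tested with edgeR 4.0.16 in R 4.3.3 (quasi-likelihood, genotype as the only term, Benjamini-Hochberg over 9076 genes). SEs are the absolute log2 change over the square root of F. Scripts were tested on simulated data. Alternatives were DESeq2 1.42.0, RLE scaling, no filter, each library left out, libraries summed by described replicate and a replicate block.

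The members and lists were chosen with earlier results of these data known. All members were named with every library's value. Of the other lists, called genes were named, with at most 3 more per list by highest level. Beyond this rule dally, puc and CG14059 (Ilp8) were named. Named as likeness genes were the 3 of mean level at least 1 CPM with the highest r. Neighbours were the 3 nearest genes on each side of the upd cluster. Intervals and floors cover counting error only.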

Additional observations from a re-analysis of the deposited data

Results flagged for a closer look

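In 5 of the 54 genes checked, 1 Myb mutant library lay far from the other 4 relative to the group's range (Dixon's test at the 95% level, which chance alone passes in about 1 of 20 groups). For dome it was mutant library 2 at 364 CPM, where the others held 341 to 347 CPM. For CG14225 (et) it was mutant library 4 at 0.575 CPM, with the others at 0.282 to 0.358 CPM. TepII was high in mutant library 1, at 140 CPM beside 98.0 to 107 CPM. Mutant library 4 was also low for msn, at 176 CPM beside 201 to 209 CPM, and high for CG10176 (grnd), at 118 CPM beside 110 to 111 CPM. Mutant library 4 carried 3 of these 5 values and also had the highest summed hemocyte markers of the mutant group, 61.3 CPM. The control group, with 3 libraries, was not checked in this way.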

How the results depend on the processing

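The calls of upd2, upd3 and et held with DESeq2, RLE scaling, no filter and each library left out. Summing libraries by described replicate left 0 members higher, and 744 genes higher and 766 lower in all. It gave 2 further pathway genes higher and 2 lower, 3 Stat92E targets higher, 3 JNK and damage genes higher and 0 lower, and 0 Polycomb genes lower. Across genes the deviations of same-numbered libraries had r = 0.32, -0.11 and 0.0076 for numbers 1 to 3. Those of number 1 thus deviated together in part, and the main test assumed no pairing. A replicate block left 750 genes higher and 647 lower, 1 member higher (upd3, adjusted p = 0.0436, whereas upd2 had 0.0621), 1 further pathway gene higher (asrij, and not ken) and 1 lower, 4 targets higher and 1 lower, and 0 JNK genes lower, 0 Hippo genes higher and 0 Polycomb genes lower. With no filter, 3 further pathway genes were higher. With DESeq2, 3 members, 1 Polycomb gene higher and 2 lower were called. Over the fits without 1 library, all genes gave 1183 to 1702 higher and 1191 to 1758 lower, members 2 to 3 higher, further pathway genes 3 to 6 higher and 2 to 4 lower, targets 6 to 8 higher, JNK genes 4 to 6 higher and 0 to 1 lower, Hippo genes 1 to 4 higher and 0 to 1 lower, and Polycomb genes 0 to 2 higher and 0 to 2 lower. In the same fits the log2 change ran from -0.089 to 0.19 for Stat92E, -0.024 to 0.029 for Ptp61F, -0.19 to 0.23 for mask, -0.090 to 0.30 for E(bx), -0.024 to 0.23 for msn, -0.040 to 0.23 for sd and -0.0071 to 0.17 for Sfmbt, negative without control library 2, and for Ptp61F also without mutant library 2 or 4. Ptp61F was at -0.011 with no filter and -0.0087 with libraries summed. The causes were not tested. Depth limits slbo, upd2 and TotC, with 11, 39 and 1 control reads.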
